A study of Mus musculus with 5 samples.

Results

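The heat shock chaperones described here are 10 genes chosen by symbol from the 36401 Ensembl genes counted in neonatal mouse liver: Hsf1, Hspa1a, Hspa1b, Hspa8, Hsp90aa1, Hsp90ab1, Hsph1, Dnajb1, Hspd1 and Hspe1. All 10 were found and all 10 passed the filter on low counts, which left 13959 genes. Total RNA came from lobe 1 of livers of BALB/C mice killed on day 10 of life. There were 2 libraries of Mdr2+/+ (wild-type) and 3 of Mdr2+/- (heterozygous) pups. Abcb4 is the current symbol of Mdr2, the canalicular floppase that moves phosphatidylcholine into bile, and the mutant allele had been backcrossed into the BALB/c strain. The genotypes were kept as littermates, without a record of which pups shared a litter. Whether every library stands for its own pup is not spelled out in the labels, so p-values measure only the spread between these samples, which may be technical.

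Chaperones bind unfolded protein and release it in cycles of ATP hydrolysis. HSP70 proteins take up short exposed stretches, J-domain partners such as Dnajb1 deliver the client and start ATP hydrolysis, and exchange factors such as Hsph1 reset the cycle. HSP90 proteins finish the folding of signalling clients such as steroid receptors and kinases, while Hspd1 (HSP60) and its lid Hspe1 (HSP10) form the folding chamber of the mitochondrial matrix. Hsf1 is the transcription factor that raises many of these genes under heat or proteotoxic stress, by binding heat shock elements made of inverted GAA units. Hepatocytes secrete and metabolise a large load of protein, and their constitutive chaperones are abundant.

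Levels are given in CPM, the depth-scaled count unit of edgeR with TMM factors, and group values as mean ± SD (n = 2 wild-type, n = 3 heterozygous). Differences are log2 fold changes, heterozygous minus wild-type, from edgeR's quasi-likelihood test, with p-values adjusted by Benjamini-Hochberg across the 13959 genes and called below 0.05. Each 95% interval uses the moderated standard error (SE) of the fit. The library totals were 11944157 to 17312851 estimated counts. Abcb4 itself was at 162 and 162 CPM in the wild-type and at 101, 97.7 and 92.6 CPM in the heterozygous libraries, in the direction of the labels (log2 fold change -0.74, SE 0.06, adjusted p = 3.4e-04 in edgeR). Of 10 hepatocyte markers all were detected, and Alb alone held 12.3 to 14.4% of the counts of a library.

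Of the 10 chaperones 1 differed between the genotypes, Hsp90aa1, which was lower in heterozygous livers, and 0 were higher. Over all tested genes 12% were called (1680 genes, 925 higher and 755 lower), and 5.41% were called lower. The members' share of 1 in 10 lies close to that background. At an unadjusted p under 0.05 there were 2 lower members (Hsp90aa1 and Hspa8) and 0 higher, and DESeq2 and limma each called these 2 and 0 higher. Over all tested genes an unadjusted p under 0.05 was found for 28.2% (13.4% lower and 14.8% higher), so the members did not exceed that background in total. DESeq2 called 9.62% of the genes it gave an adjusted p (4.29% lower) and limma called 13.2% (5.73% lower). Hspa1a and Hspa1b had no adjusted p in DESeq2. The median log2 fold change of the members was -0.08, against 0.00 (-0.00245) over all tested genes. With an offset for transcript length the median of the members was -0.00325. The members spanned -0.29 (Hsp90aa1) to 0.24 (Hsph1). The groups of libraries did not overlap for 4 members, all lower in heterozygous livers (Hspa8, Hsp90aa1, Hsp90ab1 and Hspe1), while 0 members had all heterozygous libraries above. Over all tested genes the groups did not overlap for 45.5%, with 22.7% lower and 22.9% higher in the heterozygous libraries. The member count was 0 without wild-type replicate 1, wild-type replicate 2, heterozygous replicate 1 or heterozygous replicate 2, and 1 without heterozygous replicate 3. Over all genes the calls fell to 697 and 907 when wild-type replicate 1 or 2 was left out, and to 838 and 1068 when heterozygous replicate 2 or 3 was. With library size as the only scaling, 704 of all genes were higher and 936 lower.

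**Figure D1:**
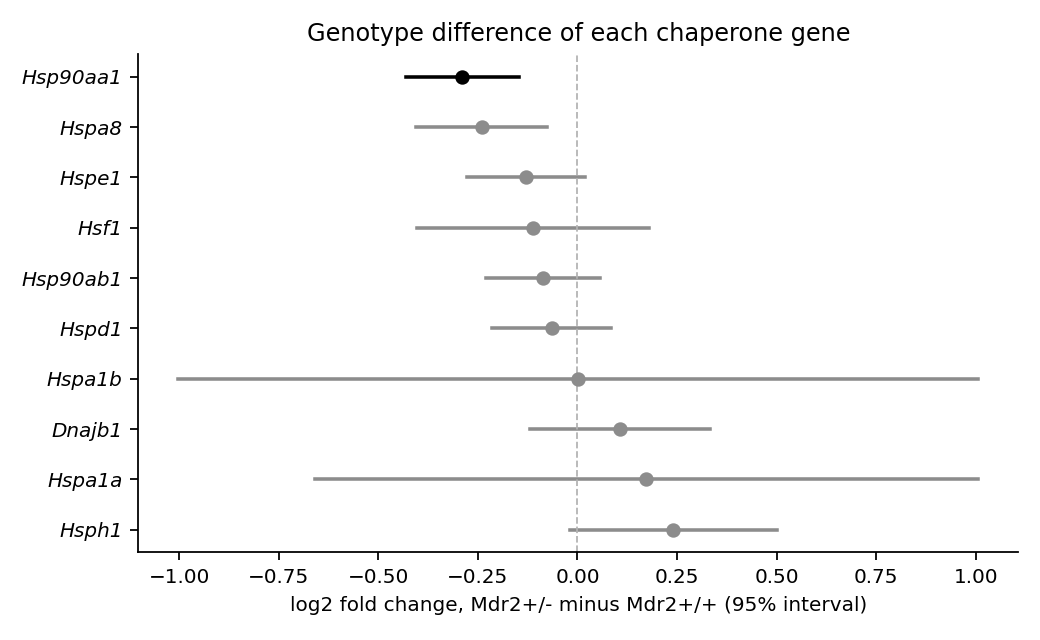
Log2 fold change of each of the 10 chaperone genes (heterozygous minus wild-type, points) with its 95% interval (lines), from edgeR. Black marks an adjusted p under 0.05 and grey the others: Hsp90aa1, at -0.29, is the only black gene, and the intervals of Hspa1a and Hspa1b are the widest.

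Transcript levels were compared between genes per length, as CPM per kilobase of the longest annotated transcript. Hspa8 stood first at 219 CPM per kb over the 5 libraries (188 to 243), followed by Hsp90ab1 at 209.7 (197 to 219), Hspd1 at 203 (195 to 218) and Hspe1 at 155 (144 to 169). The ranges of Hspa8, Hsp90ab1 and Hspd1 overlapped, so their order is not resolved, while every library of Hspe1 lay below every library of these genes. Hsp90aa1 followed at 50.1 (44.2 to 56.7), then Dnajb1 at 8.11 (6.91 to 8.64), Hsph1 at 4.29 (3.69 to 5.16) and Hsf1 at 3.11 (2.81 to 3.44). Hsph1 and Hsf1 were separate in every library, by a gap smaller than either range. Hspa1b at 0.224 (0.15 to 0.308) and Hspa1a at 0.213 (0.170 to 0.274) came last and overlapped. The stress-inducible HSP70 pair was thus the least abundant of the set in each library. Hspa8 was the most abundant in both wild-type libraries, and in heterozygous replicate 1 it lay below Hsp90ab1 and Hspd1 (188, 197 and 195 CPM per kb). Hspa8, Hsp90ab1, Hsp90aa1, Hspd1 and Hspe1 made up 97.0 to 97.8% of the members' summed CPM in each library.

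**Figure D2:**
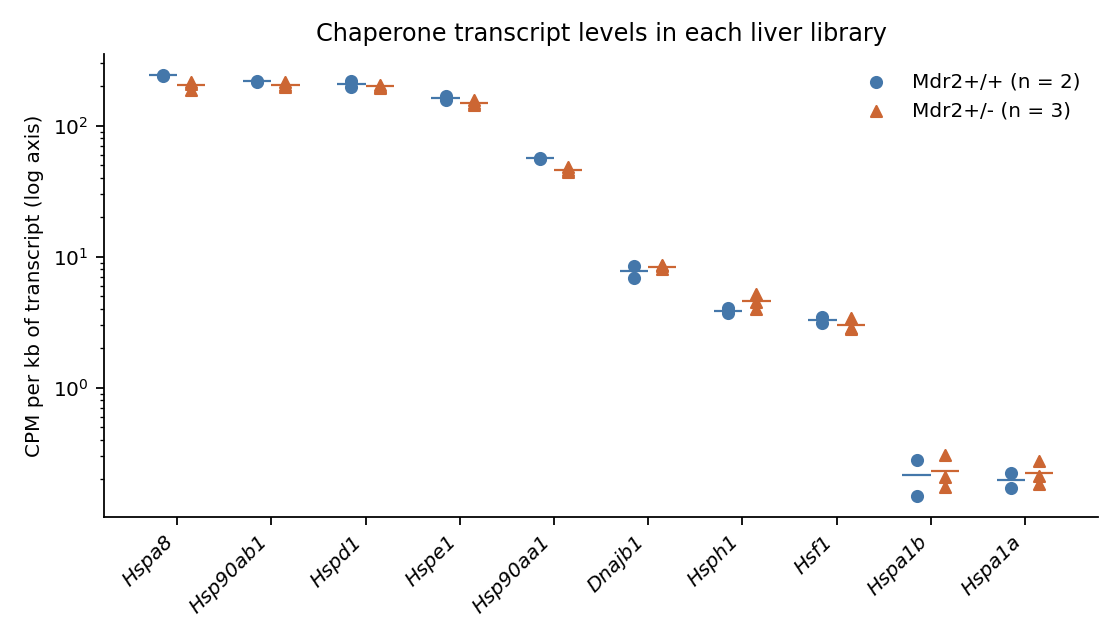
Transcript level of the 10 chaperone genes in each library, as CPM per kilobase of transcript on a log axis, ordered by mean. Circles are the 2 wild-type and triangles the 3 heterozygous libraries, with short lines at the group means. Hspa8 (188 to 243) and Hspa1a (0.170 to 0.274) lie at opposite ends, and most genes span a narrow range across libraries.

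Hsf1 (ENSMUSG00000022556, chromosome 15, 76477422 to 76501913, plus strand, mm10), the master regulator of the heat shock response, was at 10.8 and 9.67 CPM in wild-type libraries and at 8.79, 8.86 and 10.7 CPM in heterozygous ones. The groups overlapped, since heterozygous replicate 3 lay between the wild-type values. The log2 fold change was -0.11 (SE 0.13, adjusted p = 0.623 in edgeR), and its 95% interval ran from -0.40 to 0.18. Hsf1 protein is controlled largely by release from chaperones, trimer formation and phosphorylation, none of which was measured here.

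Hspa8 (ENSMUSG00000015656, chromosome 9, 40800984 to 40810087, plus strand) encodes HSC70, the constitutive cytosolic HSP70 that also serves clathrin uncoating and chaperone-mediated autophagy. Its level was 767 and 759 CPM in wild-type libraries and 592, 660.4 and 684 CPM in heterozygous libraries. Every heterozygous library lay below both wild-type libraries, with heterozygous replicate 1 the lowest. The difference did not pass the threshold (763 ± 5.11 to 646 ± 47.6 CPM, log2 fold change -0.24, SE 0.07, adjusted p = 0.0622 in edgeR). The 95% interval of -0.40 to -0.08 corresponds to 75.6 to 94.8% of the wild-type level. Hspa8 was called in 4 of 15 alternative fits, with adjusted p = 0.0210 to 0.167 across them. These were DESeq2, robust limma, no low-count filter and library size as the only scaling. Without any 1 library it was not called.

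Hspa1a (ENSMUSG00000091971, chromosome 17, 34969190 to 34972156, minus strand) and Hspa1b (ENSMUSG00000090877, chromosome 17, 34956436 to 34959238, minus strand) are neighbouring copies of the inducible HSP70 gene, near-silent in most unstressed tissues. Their promoters are shown because they are nearly the same: of the 250 bases before each annotated start, 247 were identical (98.8%). The 3 differences, with the Hspa1a base first, positions counted from 1 at the 5′ end of the printed run and the Hspa1b base last, were C44T, T47C and T249G. In the runs below, read 5′ to 3′ on the gene's strand from the RefSeq promoter table of build GRCm38.p6 (Hspa1a at chr17:34972157-34972406, Hspa1b at chr17:34959239-34959488, both minus strand), capitals mark a match to a heat shock element of paired units.
Hspa1a: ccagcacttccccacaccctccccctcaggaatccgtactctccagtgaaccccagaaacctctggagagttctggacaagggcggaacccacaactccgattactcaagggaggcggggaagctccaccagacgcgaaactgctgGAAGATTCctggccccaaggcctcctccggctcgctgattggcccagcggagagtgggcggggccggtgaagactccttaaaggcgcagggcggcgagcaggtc
Hspa1b: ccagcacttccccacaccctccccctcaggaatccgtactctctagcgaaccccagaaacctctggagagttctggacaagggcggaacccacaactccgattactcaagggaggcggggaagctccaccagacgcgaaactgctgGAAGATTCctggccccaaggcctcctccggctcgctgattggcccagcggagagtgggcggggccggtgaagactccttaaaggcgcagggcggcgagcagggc

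Both copies were at a low RNA level in every library. Hspa1a was at 0.660 and 0.505 CPM in wild-type and at 0.628, 0.546 and 0.814 CPM in heterozygous libraries. Hspa1b was at 0.793 and 0.421 CPM in wild-type and at 0.863, 0.486 and 0.582 CPM in heterozygous libraries. A floor of 3 counts is worth 0.173 to 0.251 CPM in these libraries, so both genes stood above it by a small margin, on 4.83 to 13.6 estimated counts each. The groups overlapped for both genes, and the log2 fold changes were 0.17 (SE 0.37, adjusted p = 0.830 in edgeR) and 0.00 (SE 0.45, adjusted p = 0.999). Their 95% intervals ran from 63.3 to 201% and from 49.9 to 201% of the wild-type level, so a difference within those bounds was not detectable at this depth. Reads that fit both copies cannot be assigned with certainty, so the counts were also added. The pair together had 22.4 and 11.2 estimated counts in wild-type and 18.7, 17.7 and 23.2 in heterozygous libraries (log2 fold change 0.09, SE 0.30, adjusted p = 0.889 in edgeR). Per length, Hspa8 was 361 to 751 times as abundant as both inducible copies together. How reads that fit both copies were counted is not known, and any left out would be missing from the added counts too.

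Dnajb1 (ENSMUSG00000005483, chromosome 8, 83608193 to 83612653, plus strand), the HSP40 partner that hands clients to HSP70, was at 25.6 and 20.7 CPM in wild-type libraries. In heterozygous libraries it was at 23.9, 25.3 and 25.9 CPM. Heterozygous replicates 1 and 2 lay between the wild-type values and replicate 3 just above them (log2 fold change 0.11, 95% interval -0.12 to 0.33, adjusted p = 0.531 in edgeR). Hsph1 (ENSMUSG00000029657, chromosome 5, 149614287 to 149636376, minus strand), the HSP110 exchange factor that opens HSP70 for a new round, was at 19.3 and 17.6 CPM in wild-type libraries. Its heterozygous values of 19.1, 21.5 and 24.6 CPM were the highest in replicates 2 and 3, while replicate 1 lay between the wild-type libraries. The log2 fold change of 0.24 was the most positive of the members and did not pass (SE 0.12, 95% interval -0.02 to 0.50, adjusted p = 0.210 in edgeR). Hsph1 has the longest transcript of the set (4764 bases), and with an offset for transcript length the value was 0.19.

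Hsp90aa1 (ENSMUSG00000021270, chromosome 12, 110690605 to 110702728, minus strand) encodes HSP90 alpha, the stress-responsive cytosolic HSP90. It was at 183 and 186 CPM in wild-type libraries and at 145, 150.0 and 158 CPM in heterozygous libraries. The wild-type libraries lay close together and every heterozygous library was below them, at 151 ± 6.63 against 185 ± 2.13 CPM. The log2 fold change was -0.29 (SE 0.06, adjusted p = 0.0191 in edgeR), which is 81.8% of the wild-type level with a 95% interval of 74.2 to 90.3%. The call was kept in 11 of 15 alternative fits, with a log2 fold change of -0.33 to -0.26 across them. It was lost without wild-type replicate 1 (adjusted p = 0.0679 in edgeR), wild-type replicate 2 (0.0814), heterozygous replicate 1 (0.0517) or heterozygous replicate 2 (0.0696).

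Hsp90ab1 (ENSMUSG00000023944, chromosome 17, 45567775 to 45573271, minus strand) encodes HSP90 beta, the constitutive and more abundant cytosolic form. It was at 543 and 553 CPM in the wild-type group and at 496, 510.4 and 541 CPM in heterozygous libraries. The groups did not overlap, but heterozygous replicate 3 came within a few CPM of wild-type replicate 1, and the difference did not pass (log2 fold change -0.09, SE 0.06, adjusted p = 0.415 in edgeR). The 95% interval of 85.2 to 104% of the wild-type level excludes a fall as large as the fitted fall of Hsp90aa1. The balance of the HSP90 forms can be read within each library, where depth scaling drops out. The ratio of Hsp90ab1 to Hsp90aa1 per length was 3.86 and 3.87 in the wild-type livers, against 4.45, 4.43 and 4.45 in the heterozygous ones. The groups were separate (3.86 ± 0.00524 and 4.44 ± 0.0111). These SDs are below the counting error of 1848 to 2773 estimated counts of Hsp90aa1, so they do not measure the precision of the ratio. This ratio was chosen after its values were seen, so no test is given.

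**Figure D3:**
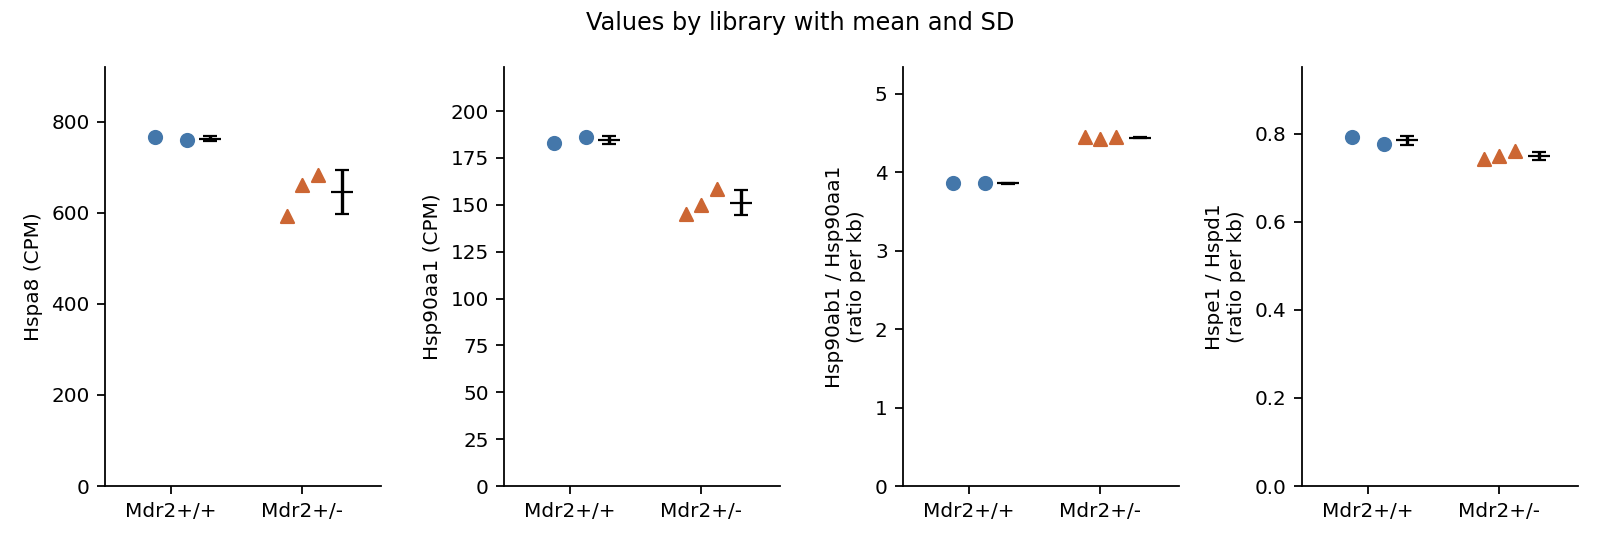
Hspa8 and Hsp90aa1 levels (CPM, left panels) and the within-library ratios of Hsp90ab1 to Hsp90aa1 and of Hspe1 to Hspd1 per length (right panels), with all axes from 0. Circles are the 2 wild-type and triangles the 3 heterozygous libraries, and black bars give mean and SD. Groups do not overlap in any panel: the HSP90 ratio is 3.86 and 3.87 in wild-type and 4.43 to 4.45 in heterozygous livers. The ratios carry no offset for the change of fold changes with transcript length, and neither was tested.

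Hspd1 (ENSMUSG00000025980, chromosome 1, 55077835 to 55088243, minus strand) and Hspe1 (ENSMUSG00000073676, chromosome 1, 55088132 to 55091307, plus strand) lie head to head and their annotated ends overlap. Upstream of Hspe1, and inside the annotated span of Hspd1, are 3 overlapping matches to paired heat shock units. They are printed in capitals because they fall in RefSeq promoter windows of both genes. The run is read on the plus strand of GRCm38.p6 at chr1:55088053-55088082. It ends 66 bases before the RefSeq start of Hspe1 at 55088148, and it lies in the window before a start of Hspd1 at 55087932.
Hspe1 and Hspd1: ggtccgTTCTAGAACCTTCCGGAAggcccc

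Hspd1 was at 481 and 528 CPM in wild-type libraries and at 472, 478 and 496 CPM in heterozygous libraries. Heterozygous replicate 3 exceeded wild-type replicate 1, so the groups overlapped (log2 fold change -0.07, 95% interval -0.21 to 0.08, adjusted p = 0.571 in edgeR). Hspe1 was at 152 and 163 CPM in wild-type and at 139, 143 and 150.0 CPM in heterozygous libraries, which did not overlap. Its difference did not pass (log2 fold change -0.13, SE 0.07, 95% interval -0.28 to 0.02, adjusted p = 0.239 in edgeR). Wild-type replicate 2 and heterozygous replicate 3 were the highest of their groups for both genes. Per length, the ratio of Hspe1 to Hspd1 was 0.793 and 0.778 in the wild-type livers, against 0.742, 0.750 and 0.760 in the heterozygous ones, with every heterozygous value below both wild-type values. Hspe1 has the shortest transcript of the members (964 bases). With an offset for transcript length its log2 fold change was 0.02 and that of Hspd1 was -0.03. After the offset Hspe1 thus no longer fell more than Hspd1, and their ratio was not tested. Counts of the pair carry an uncertainty, since it is not known whether reads were assigned by strand where the genes overlap. Rows named as Hspe1 pseudogenes held 0.355 to 0.630% as many estimated counts as Hspe1.

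Heat shock elements were searched as letters on both strands in windows of 300 bases, 250 before and 50 from each RefSeq start. The paired motifs were GAANNTTC and TTCNNGAA, each its own reverse complement. The motifs of 3 units were GAANNTTC followed by NNGAA and TTCNNGAA followed by NNTTC, which contain the paired ones. The table held windows for 6 of the 10 members (Hspa1a, Hspa1b, Hspd1, Hspe1, Hsph1 and Dnajb1). A paired motif was present in at least 1 window of 5 of these, against 16.97% of the 27025 genes in the table (15.1% of its 32851 windows). A 3-unit motif was present for 3 (Hspd1, Hspe1 and Hsph1, of which Hspd1 and Hspe1 share the same letters), against 0.662% of all genes (0.603% of all windows). For Hsph1 the paired match before the RefSeq start at 149636336 lies in the run below (minus strand, chr5:149636351-149636380, capitals as before). It falls inside the annotated span of Hsph1, which reaches 149636376. The 3-unit match covers bases 37 to 49 from the same RefSeq start. These matches describe letters and not bound sites. Of the 5 members that carry them 0 were called between the genotypes in edgeR, DESeq2 or limma, with 0 at an unadjusted p under 0.05. DESeq2 gave Hspa1a and Hspa1b no adjusted p, so it could call neither. Over all tested genes 12% were called in edgeR and 28.2% had an unadjusted p under 0.05. Hsp90aa1 and Hspa8, the only members with such a p, had no window and were not searched. The count therefore cannot tell whether the elements go with the genotype difference.
Hsph1: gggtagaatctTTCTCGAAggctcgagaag

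The genes whose profiles were nearest to 2 of the members were found from the root mean square difference of centred log2 CPM over the 5 libraries. For Hsp90aa1, the member with the largest difference, they were Rps15a (0.0120), Sumo2 (0.0142), Nt5dc2 (0.0176), Ptges3 (0.0185) and Uqcrq (0.0190). Ptges3 encodes p23, a co-chaperone of HSP90, and was at 99.1 and 104 CPM in wild-type and at 80.2, 82.3 and 88.7 CPM in heterozygous libraries. For Hspa8 they were 0610037L13Rik (0.0116), Gas2l3 (0.0151), Atp5h (0.0157), Eif1ad (0.0190) and 1810009A15Rik (0.0191). Hspa8 and Hsp90aa1 were each other's nearest member (0.0441), at ranks 142 and 104 among the tested genes.

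The wider chaperone network was described with 10 lists written by function, from which the members were left out. They held 147 matched genes, of which 133 were tested, with 3 higher and 8 lower (8.27%, against 12% of all tested genes). Their median log2 fold change was -0.07. An unadjusted p under 0.05 was found for 8 higher and 29 lower genes, beside 14.8% higher and 13.4% lower over all tested genes. Library size as the only scaling gave 3 higher and 16 lower. Leaving out wild-type replicate 1 or wild-type replicate 2 gave 3 calls each, leaving out heterozygous replicate 1 gave 5 and heterozygous replicate 2 gave 2. DESeq2 called 6, the fit with a length offset 7 and limma 16 (4 higher and 12 lower). Over all tested genes limma called 13.2% (5.73% lower).

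Among HSP90 paralogs and co-chaperones, 1 of 25 was higher and 2 were lower (12%, against 12% of all tested genes, median -0.10). An unadjusted p under 0.05 was found for 2 higher and 6 lower, beside 14.8% higher and 13.4% lower over all tested genes. Fkbp5, an immunophilin that tunes glucocorticoid receptor complexes and is itself a glucocorticoid-induced gene, was at 86.8 and 92.8 CPM in wild-type and at 130.0, 119 and 116 CPM in heterozygous libraries. It rose in every heterozygous library (log2 fold change 0.44, SE 0.07, adjusted p = 0.00544 in edgeR) and was called in all 15 alternative fits (highest adjusted p = 0.0499). Ptges3 fell (102 ± 3.42 to 83.8 ± 4.44 CPM, log2 fold change -0.28, adjusted p = 0.0273 in edgeR), as did Cacybp, the calcyclin-binding protein (39.6 ± 2.81 to 32.1 ± 2.30 CPM, log2 fold change -0.30, adjusted p = 0.0445). Ptges3 lost its call when either wild-type library or heterozygous replicate 1 or 2 was left out (0.0689 to 0.12), and also once length was offset (0.0646). Cacybp lost it when either wild-type library or heterozygous replicate 2 or 3 was left out (0.0701 to 0.207), in DESeq2 (0.107) and once length was offset (0.0954).

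J-domain proteins other than Dnajb1 had calls in both directions. Of 29 tested type C genes 2 were higher and 2 lower (13.8%, against 12% of all tested genes, median -0.07). An unadjusted p under 0.05 was found for 3 higher and 5 lower, beside 14.8% higher and 13.4% lower over all tested genes. Gak, the auxilin-like kinase that recruits Hspa8 to clathrin coats (42.9 ± 0.299 to 53.8 ± 0.843 CPM, log2 fold change 0.33, adjusted p = 0.0112 in edgeR), and Dnajc13, an endosomal J-domain protein (28.3 ± 1.00 to 37.1 ± 1.94 CPM, log2 fold change 0.39, adjusted p = 0.0128), rose. Dnajc12, which assists folding of phenylalanine hydroxylase (16.6 ± 1.30 to 11.8 ± 1.29 CPM, log2 fold change -0.48, adjusted p = 0.0283), and Dnajc15, of the mitochondrial import motor (25.3 ± 1.50 to 20.5 ± 1.04 CPM, log2 fold change -0.30, adjusted p = 0.0497), fell. Gak lost its call without wild-type replicate 1 (0.0602), and Dnajc13 without wild-type replicate 1 (0.0853) or heterozygous replicate 2 (0.0522) and with the length offset (0.0658). Dnajc12 was not called when either wild-type library or heterozygous replicate 1 or 2 was left out (0.0605 to 0.129) or in DESeq2 (0.0516), and Dnajc15 without any 1 library (0.0660 to 0.240) or in DESeq2 (0.174). Of 12 type A and B genes 0 were higher and 1 lower (8.33%), with 0 higher and 3 lower at an unadjusted p under 0.05. Over all tested genes 14.8% were higher and 13.4% lower at that unadjusted p. Dnajb11, a cofactor of the endoplasmic reticulum HSP70, fell (73.6 ± 2.17 to 59.8 ± 4.02 CPM, log2 fold change -0.30, adjusted p = 0.0266 in edgeR), a call lost when either wild-type library or heterozygous replicate 1 or 2 was left out (0.0680 to 0.125). Dnaja1 (log2 fold change -0.15) and Dnajb9 (-0.21) did not pass (adjusted p = 0.146 and 0.156).

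Of 12 genes for nucleotide exchange and HSP70 co-chaperones, 0 were higher and 1 lower (8.33%, against 12% of all tested genes, median 0.03). At an unadjusted p under 0.05 there were 2 in each direction, against 14.8% higher and 13.4% lower over all tested genes. Grpel2, an exchange factor of mitochondrial HSP70, fell from 34.9 ± 0.923 to 27.5 ± 1.83 CPM (log2 fold change -0.35, adjusted p = 0.0220 in edgeR). Bag4 (log2 fold change 0.31, adjusted p = 0.0809) and Bag1 (log2 fold change -0.17, adjusted p = 0.0933) did not pass. Mitochondrial folding and proteolysis genes, of which Grpel2 is also a member, numbered 18 with 0 higher and 2 lower (11.1%, median -0.01). The other was Phb, a prohibitin scaffold of the inner membrane (130.3 ± 2.31 to 107 ± 6.28 CPM, log2 fold change -0.29, adjusted p = 0.0236 in edgeR). At an unadjusted p under 0.05 the mitochondrial list had 2 higher and 5 lower, beside the 14.8% and 13.4% of all tested genes. With either wild-type library or heterozygous replicate 2 left out, neither Grpel2 (adjusted p = 0.0617 to 0.0976 in edgeR) nor Phb (0.0711 to 0.108) was called. Grpel2 was also not called without heterozygous replicate 3 (0.0727) or in DESeq2 (0.0516), and Phb not without heterozygous replicate 1 (0.0606) or with the length offset (0.0644).

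The CCT chaperonin, which folds actin and tubulin, and its partner prefoldin had 0 of 18 genes higher and 1 lower past the threshold (5.56%, against 12% of all tested genes). The median log2 fold change was -0.15, and 83.3% of the values were below 0, against 50.4% over all tested genes. At an unadjusted p under 0.05 there were 7 lower and 0 higher, against 13.4% lower and 14.8% higher over all tested genes, and limma called 3 and DESeq2 0. Pfdn6, listed as H2-Ke2, fell from 23.1 ± 1.79 to 17.6 ± 0.796 CPM (log2 fold change -0.39, adjusted p = 0.0236 in edgeR). It was not called with any of wild-type replicate 2 and heterozygous replicates 1 and 2 left out (0.0542 to 0.128), in DESeq2 (0.0634) or with the length offset (log2 fold change -0.23, adjusted p = 0.136). Pfdn1 (log2 fold change -0.26) and the CCT subunit Cct8 (-0.21) did not pass (adjusted p = 0.0590 and 0.0666 in edgeR). With the length offset they were at -0.13 and -0.17 (adjusted p = 0.316 and 0.130 in edgeR). The median of the list was not computed with that offset, so the part of transcript length in it was not tested.

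Genes known from textbooks as heat-induced targets of Hsf1 included 1 that fell among 24 tested, Cacybp, and 0 that rose. That is 4.17% called, against 12% of all tested genes (5.41% lower), and the median was -0.09. At an unadjusted p under 0.05 there were 5 lower and 0 higher, against the 28.2% of all tested genes in either direction (13.4% lower), and DESeq2 called 0 and limma 1. Stip1, the adaptor that joins HSP70 to HSP90 (97.2 ± 1.16 to 84.3 ± 3.68 CPM, adjusted p = 0.0660 in edgeR), and Serpinh1, the collagen chaperone HSP47 (65.7 ± 1.00 to 55.8 ± 4.81 CPM, adjusted p = 0.0855), did not pass. The other heat shock factors and their binding proteins had 0 of 3 called in edgeR, DESeq2 and limma, and 0 at an unadjusted p under 0.05. Hsf2 was at 47.2 ± 1.01 and 43.7 ± 2.00 CPM and Hsbp1l1 at 2.04 ± 0.0860 and 1.44 ± 0.405 CPM. Other HSP70 and HSP110 genes had 0 of 9 called in edgeR and DESeq2 and 1 in limma. One was below an unadjusted p of 0.05, Hyou1, the HSP110-like chaperone of the endoplasmic reticulum (log2 fold change -0.23, adjusted p = 0.0616), and Hspa2 was at 1.46 ± 0.196 and 2.12 ± 0.534 CPM. Of 10 small heat shock protein genes 4 were tested and 0 called in edgeR, DESeq2 and limma (Hspb6 at -0.25, Hspb8 at -0.17). Of these 4, 0 had an unadjusted p under 0.05. Beside these lists, 12% of all tested genes were called in edgeR and 13.2% in limma. DESeq2 called 9.62% of the genes it gave an adjusted p.

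**Figure D4:**
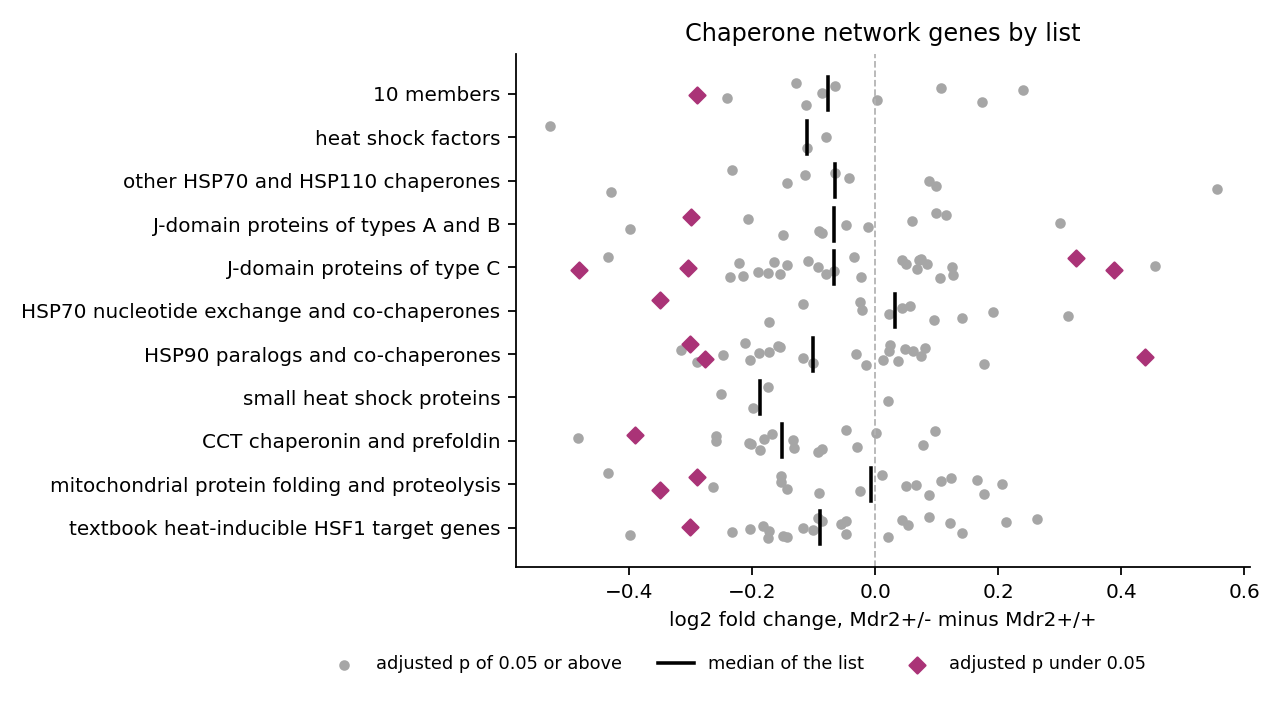
Log2 fold change (heterozygous minus wild-type) of the 10 members and of the tested genes of each chaperone list, without the members. Diamonds mark an adjusted p under 0.05 in edgeR, grey points the others, and vertical bars the median of a list. Most genes lie within 0.4 of 0, and diamonds fall on both sides, with Fkbp5 at 0.44 and Dnajc12 at -0.48.

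Markers of several cell types differed in the same libraries, and in bulk tissue fewer cells of a type and less RNA per cell cannot be told apart. Of 13 erythroid markers 12 were lower and 0 higher, and their summed level was 5923 to 7146 CPM in wild-type and 3439 to 3992 CPM in heterozygous libraries. Neutrophil markers were higher in 8 of 10 cases (111 to 162 CPM against 357 to 456 CPM) and B lineage markers in 7 of 9 (14.4 to 21.7 CPM against 40.1 to 48.7 CPM). The hepatocyte list had 1 higher and 1 lower of 10, with sums of 171718 to 185298 CPM in wild-type and 184773 to 200270 CPM in heterozygous libraries. Kupffer cell markers had 0 higher and 2 lower of 9 (408 to 593 CPM against 409 to 475 CPM), and sinusoidal endothelial markers 0 higher and 3 lower of 8 (334 to 350 CPM against 316 to 340.1 CPM). Stellate cell markers had 1 higher and 0 lower of 8 (1106 to 1256 CPM against 1304 to 1469 CPM). Cholangiocyte markers had 0 of 5 in either direction (79.7 to 93.5 CPM against 70.9 to 80.8 CPM). Called shares were 92.3% (erythroid), 80% (neutrophil), 77.8% (B lineage), 37.5% (sinusoidal endothelial), 22.2% (Kupffer cell), 20% (hepatocyte) and 12.5% (stellate cell). Beside these, 12% of all tested genes were called (6.63% higher and 5.41% lower). The Kupffer cell, hepatocyte and stellate cell shares rest on 1 or 2 genes each. No marker was at 0 in every library, and the part of these cells in the lower Hsp90aa1 and Hspa8 levels was not tested. Fold changes also moved with transcript length: the median was -0.13 in the shortest 20% of genes, which hold Hspe1, and 0.04 in the fourth length group, which holds Hsph1. Hsp90aa1 and Hspa8 lie in the middle group, whose median was 0.00 (-0.00369), and with the length offset their log2 fold changes were -0.29 (adjusted p = 0.0241 in edgeR) and -0.23 (adjusted p = 0.0798).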

How the data were processed

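The data are 2 Mdr2+/+ and 3 Mdr2+/- liver RNA libraries (TruSeq kit, HiSeq 2000), grouped by the labels. TopHat and build mm10 are named in the submitters' processing notes, without roles. The version, counting tool, annotation and strand use were not given in the sources used here. The authors deposited estimated counts per Ensembl gene, a table per library, unscaled. They were rounded, filtered by filterByExpr in edgeR 4.0.16 (minimum count 10), scaled by TMM and tested with glmQLFTest, two-sided, in R 4.3.3. Intervals use the SE (fold change over the root of F) and a t quantile with 9.52 degrees of freedom, and floors of 3 counts cover counting error only. Alternatives used DESeq2 1.42.0, limma 3.58.1, other filters and scalings, each library left out, a replicate block, added Hspa1a and Hspa1b counts, and lowess offsets (span 0.3) for transcript length and GC content. Coordinates and lengths came from GENCODE M21 (mm10), which matched 87.3% of identifiers. Members and lists were chosen with earlier results of these data known. The rule named all 10 members, up to 6 called genes of each list (with the 2 next by p where under 2 passed) and the 5 nearest profiles of 2 members. Of 148 network genes listed 147 were matched.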

Additional observations from a re-analysis of the deposited data

How the results depend on the processing

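Over all genes, 697 to 1174 genes were called when single libraries were left out, and 1212 to 2177 under the other alternatives. Among the members the count was 0 to 1 with single libraries left out, and 2 in DESeq2, in robust limma, with no low-count filter and with library size as the only scaling, where Hspa8 joined Hsp90aa1. The network count was 2 to 8 with single heterozygous libraries left out, 6 in DESeq2, 7 with the length offset, 16 in robust limma and 19 with library size alone. Directions turned for some members that were not called, and the cause was not tested: Hspa1b had a log2 fold change of -0.0369 with library size alone, and Hspe1 of 0.0221 with the length offset. With single libraries left out, Hspa1b ranged from -0.330 to 0.564, Dnajb1 from -0.0290 to 0.273 and Hspd1 from -0.135 to 0.00582, and each turned without wild-type replicate 2. Where 1 wild-type library remained, it was assumed to vary like the heterozygous ones. Hspa1a and Hspa1b were not tested in some of these fits. Replicate numbers 1 and 2 are shared by the genotypes. Deviations from the group means correlated at 0.0304 and 0.0286 for libraries with the same number. Both values rest on the same difference between the 2 wild-type libraries, so they cannot settle what a shared number means. A fit with the replicate number as a block, over these 4 libraries, called 1313 genes, 1 member (Hsp90aa1, adjusted p = 0.0336) and 9 network genes, against 1068, 1 and 8 in the same libraries without the block. Depth limits Hspa1a and Hspa1b, at 4.83 to 13.6 estimated counts.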
